A study of Mus musculus with 9 samples.

Results

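Mast cell and basophil genes were followed across 9 libraries of mouse bone marrow cells. The 10 genes were given as a list of symbols: the granule proteases Cpa3, Mcpt8, Prss34, Tpsb2 and Cma1, the histamine-forming enzyme Hdc, the IgE receptor chains Fcer1a and Ms4a2, the IL-33 receptor Il1rl1 and the transcription factor Gata2. All 10 were matched to Ensembl identifiers among the 21159 genes of the count table, and all 10 passed the filter on low counts, which left 11196 genes.

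Each group holds 3 libraries, described in the labels as independent biological replicates, and the genotype was Runx2fl/fl CreErt2tg/+ throughout, so that controls carry the floxed alleles and the inducible Cre as well. Runx2ko cells were cultures transformed in vitro with the leukaemia fusion KMT2A-MLLT1 from an eGFP-tagged retrovirus and then given 400 nM 4-hydroxytamoxifen (4-OHT), the drug that switches on CreERT2, over 24 hours. Runx2wt cells were transformed cultures given ethanol. BM progenitor cells were collected before the first replating in methylcellulose, and whether they already carried the fusion cannot be read from the labels. Lineage-depleted marrow was the source, and the early culture held the cytokines IL-3, IL-6 and SCF. Transformed cells came from suspension culture after serial replating at 7-day intervals, so passage and culture form differ from BM progenitor together with transformation and cannot be told apart from it. 4-OHT and Cre activity likewise go with the label Runx2ko in every library. Ages were not among the labels. The RNA extraction text names T-ALL cells, which no sample label does.

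Mast cells and basophils are related granulocytes that bind IgE through a receptor of an alpha chain (Fcer1a), a beta chain (Ms4a2) and a shared gamma chain (Fcer1g), and release histamine and proteases when that receptor is cross-linked. Mast cells store chymases, tryptases and carboxypeptidase A3, whereas mouse basophils are known for the proteases Mcpt8 and Prss34. Both lineages depend on GATA2, and both can grow out of marrow in IL-3, with SCF favouring mast cells.

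Libraries were QuantSeq 3' tag counts, in which a read starts near the end of a transcript, so that a count does not scale with gene length. Totals ran from 3118594 to 5348177 counts, 14377 to 15634 genes had a count, and mitochondrial genes took 1.67% to 2.15%. Levels below are CPM, counts scaled to a common library total with TMM-adjusted library sizes. Of stem and progenitor genes, BM progenitor held Kit at 68.6 to 74.7 CPM, Cd34 at 76.9 to 83.1 CPM and Ly6a at 36.15 to 77.1 CPM. Hlf was at 15.3 to 26.2 CPM, Flt3 at 6.57 to 10.25 CPM, Procr at 2.34 to 4.93 CPM and Mecom at 0.270 to 1.06 CPM. Cd34, Hlf and Flt3 were highest in this group, whereas Kit reached 109.5 CPM in Runx2ko replicate 3. Ly6a, Procr and Mecom reached 115.5, 7.12 and 160.4 CPM in Runx2ko replicate 1. Mature myeloid transcripts were present in BM progenitor too, such as Mpo at 2168 to 3055 CPM and Prg2 at 1142 to 1556 CPM. The targeted gene Runx2 had 21.0, 120.1 and 134.7 CPM in Runx2ko, 159.4, 178.8 and 131.0 CPM in Runx2wt, against 53.3, 46.7 and 58.8 CPM in BM progenitor. Because the floxed exon is not named and the tags could map downstream of any deletion, these values do not test it, and Runx2ko is used as a label only.

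Runx2ko replicate 1 stood apart and is given separately from replicates 2 and 3. In this library 268 of 11196 genes (2.39%) lay more than 4-fold above every other transformed library and 397 lay more than 4-fold below, against 2 to 6 above and 5 to 18 below in each of the 5 others.

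The 10 genes together took 0.403% of the counts in Runx2ko replicate 1, 0.00461% in replicate 2 and 0.0477% in replicate 3, against 0.00722%, 0.0142% and 0.0310% in Runx2wt and 0.127%, 0.112% and 0.128% in BM progenitor. The 3 BM progenitor libraries were alike, whereas transformed libraries other than Runx2ko replicate 1 ranged from 0.00461% to 0.0477%. 3 patterns made up the set. Mcpt8, Prss34, Hdc, Ms4a2, Il1rl1, Gata2 and Fcer1a were lower than in BM progenitor in each of the 5 transformed libraries other than Runx2ko replicate 1, except Fcer1a in Runx2ko replicate 3. Tpsb2 and Cma1 were near or at 0 in BM progenitor and present in every transformed library. Cpa3 had no common direction.

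**Figure D1:**
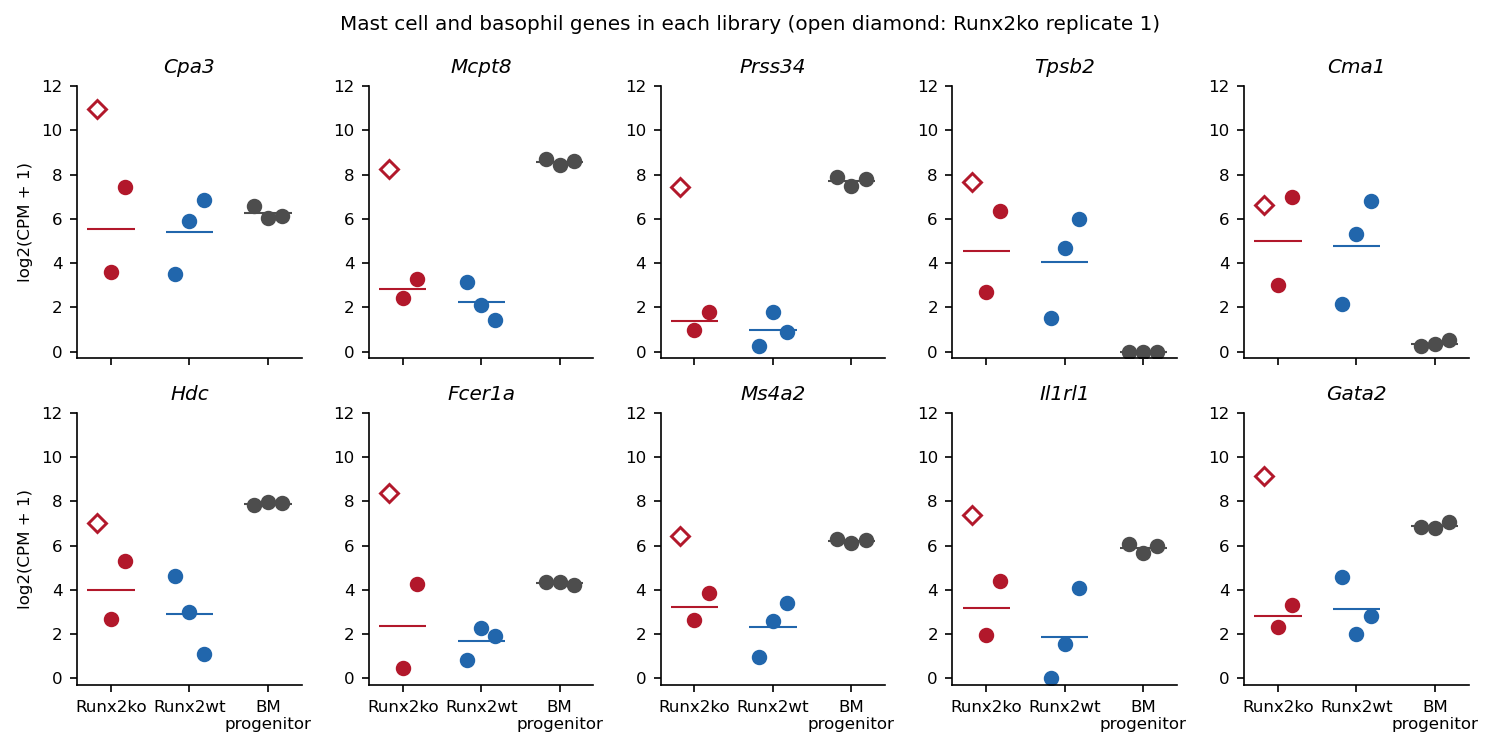
Level of each of the 10 genes as log2(CPM + 1) in the 3 libraries of Runx2ko (red, left), Runx2wt (blue, middle) and BM progenitor (grey, right); the open diamond is Runx2ko replicate 1 and lines are means, for Runx2ko over replicates 2 and 3 only. The diamond lies above all other transformed libraries for 9 of 10 genes, the exception being Cma1, and Tpsb2 lies at 0 in the 3 BM progenitor libraries.

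Promoter windows of 6 genes are shown as sequence context, 5 with GATA letters and that of Mcpt8 without. Windows of 250 bases before the RefSeq start (GRCm38.p6) were available for 9 of the 10 genes. These starts can differ from the gene ends given below, which come from another annotation. The Mcpt8 window overlaps the gene span given for Mcpt8. The Hdc window and the second windows of Il1rl1 and Gata2 lie inside the spans of their genes. They are printed 5′ to 3′ along the gene's strand, with capitals marking GATA letters (AGATAA as well as AGATAG, and also TGATAA as well as TGATAG, on either strand). The 6 windows are those of Cpa3 (chr3:20242182-20242431, minus strand), Prss34 (chr17:25298144-25298393, plus strand), Fcer1a (chr1:173227230-173227479, minus strand), Ms4a2 (chr19:11623720-11623969, minus strand), Mcpt8 (chr14:56085198-56085447, minus strand) and Cma1 (chr14:55944676-55944925, minus strand).
Cpa3: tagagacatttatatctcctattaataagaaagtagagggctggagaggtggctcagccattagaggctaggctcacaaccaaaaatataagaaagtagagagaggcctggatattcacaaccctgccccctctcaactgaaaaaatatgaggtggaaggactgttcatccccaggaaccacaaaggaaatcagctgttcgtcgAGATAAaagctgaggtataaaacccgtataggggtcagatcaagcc
Prss34: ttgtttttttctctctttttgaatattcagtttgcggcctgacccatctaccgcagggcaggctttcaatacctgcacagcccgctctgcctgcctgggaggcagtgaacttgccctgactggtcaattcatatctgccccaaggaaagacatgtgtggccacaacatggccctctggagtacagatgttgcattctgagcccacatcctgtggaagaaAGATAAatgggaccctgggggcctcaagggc
Fcer1a: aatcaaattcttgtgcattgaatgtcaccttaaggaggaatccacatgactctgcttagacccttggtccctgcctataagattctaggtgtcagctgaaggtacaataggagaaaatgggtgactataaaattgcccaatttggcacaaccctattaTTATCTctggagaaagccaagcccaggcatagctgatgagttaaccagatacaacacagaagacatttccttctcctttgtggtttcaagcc
Ms4a2: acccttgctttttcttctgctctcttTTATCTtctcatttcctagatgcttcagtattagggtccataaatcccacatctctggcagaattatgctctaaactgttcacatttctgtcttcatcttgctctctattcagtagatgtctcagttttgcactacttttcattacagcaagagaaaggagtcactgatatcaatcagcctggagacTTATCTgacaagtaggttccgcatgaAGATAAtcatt
Mcpt8: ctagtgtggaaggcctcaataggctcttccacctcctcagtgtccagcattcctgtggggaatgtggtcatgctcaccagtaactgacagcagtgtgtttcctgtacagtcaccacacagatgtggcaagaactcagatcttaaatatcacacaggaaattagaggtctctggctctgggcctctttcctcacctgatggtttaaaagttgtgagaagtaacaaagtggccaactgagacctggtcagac
Cma1: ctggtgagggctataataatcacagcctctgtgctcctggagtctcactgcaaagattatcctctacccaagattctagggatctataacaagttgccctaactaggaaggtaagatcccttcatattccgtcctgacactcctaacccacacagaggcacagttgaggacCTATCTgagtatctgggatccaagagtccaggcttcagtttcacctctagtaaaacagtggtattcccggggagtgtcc

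GATA letters were present in 8 of the 11 windows, which belong to 7 of 9 genes, and in 26.5% of 32851 promoter windows of the same length. Ms4a2 held 3 matches, the nearest ending 6 bases before the start. Cpa3 held 1 at 46 to 41 bases before the start and Prss34 1 at 31 to 26 bases. The windows of Mcpt8 and Gata2 held none. RUNX letters (TGTGGT as well as TGCGGT, on either strand) were present in 5 windows, those of Cpa3, Mcpt8, Prss34, Fcer1a and Il1rl1, against 18.6% of all windows, and the Mcpt8 window held 2. E-box letters of the kind MITF binds (CACGTG as well as CACATG; the first reads the same on both strands) were present in Prss34 and Fcer1a, against 17.6% of all windows. No match of one kind overlapped a match of another. A match describes the sequence and is not a shown binding site.

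The comparison of Runx2wt with BM progenitor cells asked how these genes differ once the culture has been transformed. Mcpt8, Prss34, Hdc and Ms4a2 fell and Cma1 rose, so 5 of 10 genes passed (edgeR quasi-likelihood test, adjusted p under 0.05 over 11196 genes), where 13.5% of all tested genes passed, 5.23% lower and 8.28% higher. The median log2 fold change was -3.39 over the 10 genes and 0.01 over all tested genes. Runx2ko replicate 1 enters this comparison through the shared estimate of the spread, the filter, the size factors and the adjustment of p. Without that library 9 passed, 7 lower and 2 higher, against 28.0% of 11636 genes, 12.1% lower and 15.9% higher. Levels in Runx2wt and BM progenitor did not overlap for 9 of 10 genes, again 7 lower and 2 higher, while 49.3% of all tested genes did not overlap, 24.5% lower and 24.8% higher. With limma-voom 3 passed, Hdc, Mcpt8 and Ms4a2, all lower. No member passed without any one of the 3 BM progenitor libraries, or without Runx2wt replicate 2 or 3, and 3 passed without Runx2wt replicate 1. In bulk RNA, fewer cells of a type and less RNA per cell cannot be told apart.

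Mcpt8 (ENSMUSG00000022157, GRCm38 chromosome 14, 56082166 to 56085273, minus strand) encodes a serine protease that marks mouse basophils. It was counted at 306.6, 4.38 and 8.67 CPM in Runx2ko, at 7.90, 3.33 and 1.67 CPM in Runx2wt, against 412.2, 344.7 and 395.7 CPM in BM progenitor. All transformed libraries lay below BM progenitor, Runx2ko replicate 1 by little. The fall in Runx2wt was -6.41 log2 units (SE 1.54, edgeR adjusted p = 0.0281; -6.38 with SE 0.40 and adjusted p = 2.47e-06 without Runx2ko replicate 1; 2.47e-06 to 0.113 over the alternatives). DESeq2 gave no p for Mcpt8, Prss34 and Gata2 in any comparison and is absent from their ranges over the alternatives. Mean levels of Mcpt8, each over 3 libraries with the SD, were 4.30 ± 3.23 CPM for Runx2wt and 384.2 ± 35.2 CPM for BM progenitor.

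Prss34 (ENSMUSG00000056399, chromosome 17, 25298394 to 25300165, plus strand), a basophil tryptase-family protease also called Mcpt11, had the same pattern. Its levels were 171.8, 0.951 and 2.44 CPM in Runx2ko, 0.188, 2.49 and 0.835 CPM in Runx2wt, against 233.0, 176.1 and 220.0 CPM in BM progenitor. The 5 transformed libraries other than Runx2ko replicate 1 rested on 1 to 9 counts each. Prss34 fell by 7.57 log2 units in Runx2wt (SE 1.88, edgeR adjusted p = 0.0319; adjusted p = 1.52e-06 without Runx2ko replicate 1; 1.52e-06 to 0.0987 over the alternatives). The ratio of Mcpt8 to Prss34 counts was 1.79 in Runx2ko replicate 1 and 4.60 and 3.56 in replicates 2 and 3, against 42.0, 1.33 and 2.00 in Runx2wt and 1.77, 1.96 and 1.80 in BM progenitor.

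Tpsb2 (ENSMUSG00000033825, chromosome 17, 25366305 to 25369098, plus strand) encodes a mast cell tryptase. It was counted at 203.1, 5.52 and 81.9 CPM in Runx2ko and at 1.88, 24.9 and 62.6 CPM in Runx2wt, and had 0 counts in the 3 BM progenitor libraries. A floor of 3 counts over the BM progenitor group was 0.216 CPM. Against it the mean was at least 448.5-fold higher in Runx2ko, 202.3-fold in replicates 2 and 3 of that group, and 138.1-fold in Runx2wt. These bounds are for group means and cover counting error in BM progenitor only. Single transformed libraries ran from 1.88 CPM in Runx2wt replicate 1 to 203.1 CPM in Runx2ko replicate 1. Its adjusted p by edgeR was 0.0274 for Runx2ko and 0.0556 for Runx2wt over BM progenitor, so that it passed only in the first with all libraries fitted; without Runx2ko replicate 1 these were 0.0114 and 0.0144, and over the alternatives they ran from 1.75e-06 to 0.325 and from 8.08e-05 to 0.443. When only Runx2wt and BM progenitor libraries were fitted, the filter on low counts removed Tpsb2, so that fit gave no test of it. Tpsab1, the tryptase gene most like Tpsb2, held at most 9 counts, and the authors' counting could split reads between both.

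Cma1 (ENSMUSG00000022225, chromosome 14, 55941451 to 55944675, minus strand) encodes a mast cell chymase. Its levels were 98.3, 7.04 and 127.7 CPM in Runx2ko, 3.39, 39.4 and 110.4 CPM in Runx2wt, against 0.182, 0.270 and 0.425 CPM in BM progenitor, the last from 1, 1 and 2 counts. Every transformed library lay above BM progenitor. Cma1 rose by 7.93 log2 units in Runx2ko (SE 1.70, edgeR adjusted p = 0.0167; 2.05e-06 to 0.406 over the alternatives) and by 7.32 in Runx2wt (SE 1.69, adjusted p = 0.0247; 1.57e-05 to 0.487). Both calls were lost with limma-voom, which gave the highest of these p-values. Among the 10 genes it alone had a highest transformed library other than Runx2ko replicate 1.

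Cpa3 (ENSMUSG00000001865, chromosome 3, 20215620 to 20242181, minus strand) encodes carboxypeptidase A3, which mast cells store in their granules and basophils and progenitors also express. It was at 2002, 11.0 and 175.1 CPM in Runx2ko, 10.5, 59.3 and 113.0 CPM in Runx2wt, against 94.2, 63.9 and 69.7 CPM in BM progenitor. The Runx2wt libraries spread on both sides of BM progenitor, and the difference of -0.33 log2 units (SE 1.32) did not pass (edgeR adjusted p = 0.891). Runx2ko replicate 1 alone was 26.4 times the BM progenitor mean.

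Hdc (ENSMUSG00000027360, chromosome 2, 126593667 to 126619299, minus strand) encodes histidine decarboxylase, which makes histamine. It was at 129.7, 5.33 and 37.9 CPM in Runx2ko, 23.3, 6.93 and 1.11 CPM in Runx2wt, against 224.4, 247.9 and 239.1 CPM in BM progenitor. Every transformed library, Runx2ko replicate 1 included, lay below BM progenitor. Hdc fell by 4.45 log2 units in Runx2wt (SE 1.11, edgeR adjusted p = 0.0328; 0.000535 to 0.124 over the alternatives).

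Among the IgE receptor chains, Fcer1a (ENSMUSG00000005339, chromosome 1, 173221284 to 173227214, minus strand) binds IgE. It was at 332.8, 0.381 and 18.4 CPM in Runx2ko, 0.753, 3.88 and 2.78 CPM in Runx2wt, against 19.2, 19.7 and 17.8 CPM in BM progenitor. Runx2wt lay below BM progenitor in every library with a difference of -2.99 log2 units (SE 1.63), short of the threshold with all libraries (edgeR adjusted p = 0.235) but past it once Runx2ko replicate 1 was left out (adjusted p = 0.0266; 0.0011 to 0.487 over the alternatives). Ms4a2 (ENSMUSG00000024680, chromosome 19, 11615523 to 11623719, minus strand), the beta chain that amplifies the signal, was at 85.1, 5.14 and 13.6 CPM in Runx2ko, 0.941, 4.99 and 9.74 CPM in Runx2wt, against 76.6, 67.4 and 76.3 CPM in BM progenitor. Ms4a2 fell by 3.86 log2 units in Runx2wt (SE 1.02, edgeR adjusted p = 0.0384; 0.000237 to 0.131 over the alternatives). The gamma chain Fcer1g, which other Fc receptors of myeloid cells share, went the other way at 496.8, 682.2 and 939.4 CPM in Runx2ko, 732.9, 1060 and 1221 CPM in Runx2wt, against 381.0, 325.3 and 430.3 CPM in BM progenitor. It rose by 1.41 log2 units in Runx2wt (SE 0.27, edgeR adjusted p = 0.0127). The count ratio of Fcer1a to Ms4a2 was 3.91 in Runx2ko replicate 1 and 0.234 to 0.292 in BM progenitor. It was 0.0741 and 1.36 in Runx2ko replicates 2 and 3 and 0.800, 0.778 and 0.286 in Runx2wt. Of these, Runx2ko replicate 2 and Runx2wt held only 2 to 14 counts of Fcer1a. Against BM progenitor, the alpha and beta chains were not raised in proportion in Runx2ko replicate 1, and the ratio also differed among other transformed libraries.

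Il1rl1 (ENSMUSG00000026069, chromosome 1, 40429570 to 40465415, plus strand) encodes ST2, the receptor for the alarmin IL-33. It was at 166.3, 2.85 and 20.1 CPM in Runx2ko, 0, 1.94 and 16.1 CPM in Runx2wt, against 67.0, 49.1 and 61.2 CPM in BM progenitor. The 0 in Runx2wt replicate 1 allows up to 0.565 CPM, a limit of 3 counts that covers counting error only. Runx2wt lay -3.35 log2 units from BM progenitor (SE 1.44, edgeR adjusted p = 0.145; adjusted p = 0.0188 without Runx2ko replicate 1; 0.00965 to 0.345 over the alternatives). Il18r1, which starts 137 bases after the end of Il1rl1 on the same strand and is named here for its values, seen beforehand, had 269, 3 and 2 counts in Runx2ko, 0, 1 and 1 in Runx2wt and 3, 2 and 1 in BM progenitor.

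Gata2 (ENSMUSG00000015053, chromosome 6, 88193891 to 88207032, plus strand), a zinc-finger transcription factor of early blood cells, mast cells and basophils, was at 567.0, 4.00 and 8.94 CPM in Runx2ko, 22.8, 3.05 and 6.12 CPM in Runx2wt, against 113.9, 108.4 and 132.5 CPM in BM progenitor. The 5 transformed libraries other than Runx2ko replicate 1 lay below BM progenitor, and that library lay above it. The difference of Runx2wt from BM progenitor was -3.43 log2 units (SE 1.55, edgeR adjusted p = 0.162; -3.40 and adjusted p = 0.000833 without Runx2ko replicate 1; 0.000833 to 0.361 over the alternatives).

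**Figure D2:**
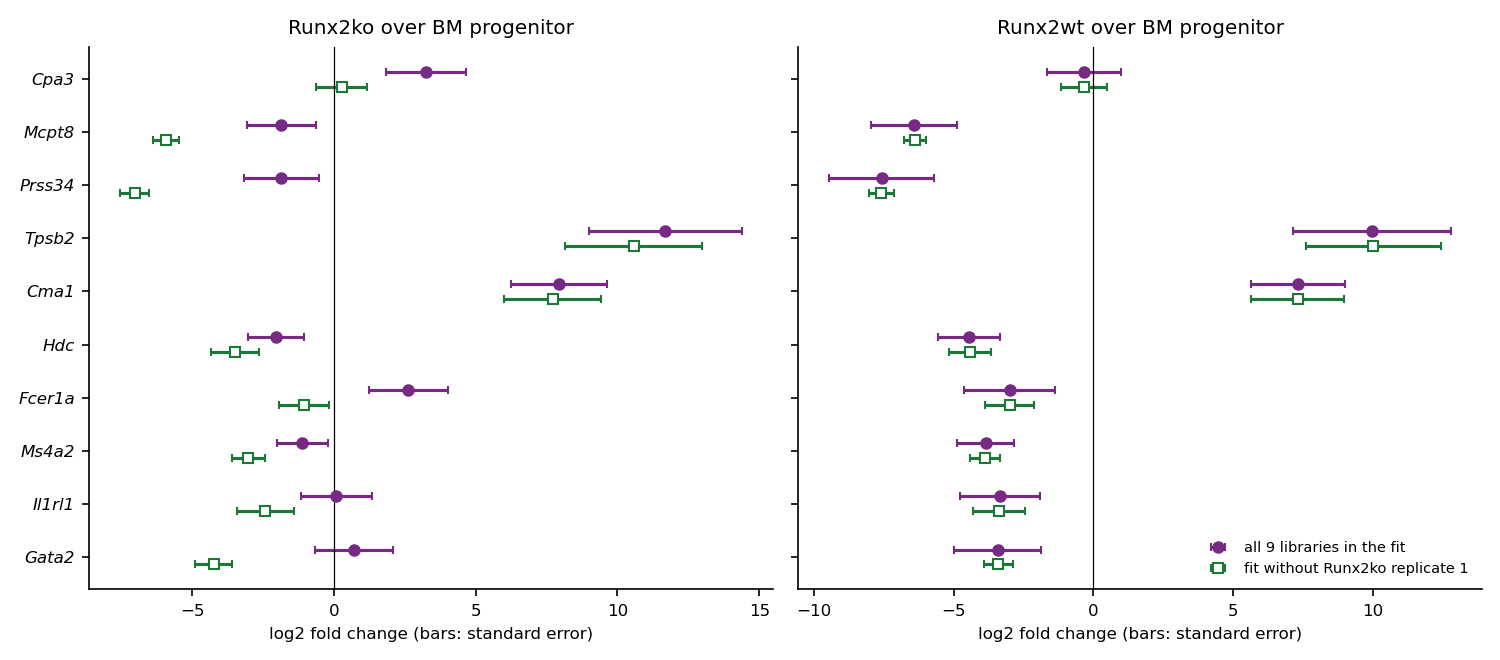
Log2 fold change with its standard error for each gene in Runx2ko over BM progenitor (left) and Runx2wt over BM progenitor (right), from the fit to all 9 libraries (filled circles) and the fit without Runx2ko replicate 1 (open squares). On the left, the values of Gata2, Il1rl1 and Fcer1a lie above 0 with all libraries and below 0 without that library, at -4.24, -2.42 and -1.06; on the right the values hardly move and the error bars of Mcpt8, Prss34 and Gata2 shorten most.

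Runx2ko replicate 1 was the highest of the 6 transformed libraries for 9 of the 10 genes, and 29.6% of all tested genes were highest in it. It lay more than 4-fold above each other transformed library for 7 of the 10 genes, where 2.39% of all tested genes did so. Its level was 68.9 times that of the highest other transformed library for Prss34, 35.4 for Mcpt8, 24.9 for Gata2, 18.1 for Fcer1a and 11.4 for Cpa3. The corresponding factors were 8.29 for Il1rl1, 6.28 for Ms4a2, 3.42 for Hdc, 2.48 for Tpsb2 and 0.770 for Cma1. Prss34 and Mcpt8 stood out most and Tpsb2 and Cma1 least, with Cpa3, which mast cells also store, in between. The factors of Prss34 and Mcpt8 divide by libraries with 9 and 32 counts. Against BM progenitor this library was above the range of the 3 libraries for 7 genes and below it for Mcpt8, Prss34 and Hdc, at 0.798, 0.819 and 0.547 times the BM progenitor mean. One library has no replicate, so none of these factors was tested.

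Markers of other cells moved in the same library. The megakaryocyte list was highest there among transformed libraries for 7 of 7 genes and summed to 780.5 CPM, against 21.3 and 27.4 CPM in Runx2ko replicates 2 and 3, 20.1 to 60.1 CPM in Runx2wt and 65.6 to 71.5 CPM in BM progenitor. Most of that sum was Itga2b, at 688.3 CPM. The erythroid list, highest there for 6 of 8 genes, summed to 825.1 CPM, of which Hbb-bt held 775.0 CPM, against 27.4 and 39.8 CPM in Runx2ko replicates 2 and 3, 3.20 to 62.6 CPM in Runx2wt and 23.7 to 28.5 CPM in BM progenitor. The monocyte and macrophage list summed to 598.7 CPM, against 5192 and 11110 CPM in Runx2ko replicates 2 and 3, 6751 to 12730 CPM in Runx2wt and 4210 to 6074 CPM in BM progenitor, and was lowest there for 7 of 9 genes. The neutrophil list summed to 614.2 CPM, against 5684 and 10280 CPM in Runx2ko replicates 2 and 3, 1262 to 4191 CPM in Runx2wt and 11970 to 16300 CPM in BM progenitor. Of its 9 genes 3 were lowest there among transformed libraries and 1, Ltf, was highest; S100a8 was at 39.8 CPM, against 2461 and 4452 CPM in Runx2ko replicates 2 and 3 and 127.0 to 1443 CPM in Runx2wt, while Mpo was at 67.0 CPM, against 21.3 and 80.2 CPM in Runx2ko replicates 2 and 3 and 5.01 to 12.8 CPM in Runx2wt. The stem and progenitor list, highest there for 5 of 7 genes, summed to 371.0 CPM, against 79.9 and 147.7 CPM in Runx2ko replicates 2 and 3, 62.4 to 86.8 CPM in Runx2wt and 234.4 to 248.9 CPM in BM progenitor. The dendritic list, lowest there for 2 of 8 genes and highest for 2, summed to 62.1 CPM, against 157.9 and 113.6 CPM in Runx2ko replicates 2 and 3, 115.0 to 175.5 CPM in Runx2wt and 481.0 to 527.6 CPM in BM progenitor. Eosinophil genes summed to 18.1 CPM in that library, of which Prg2 held 16.5 CPM; Prg2, Epx and Ccr3 were highest there among transformed libraries, 3 of 8, and Ear1, Ear2 and Ear6 were at 0. The eosinophil sum came to 8.75 and 10.8 CPM in Runx2ko replicates 2 and 3, to 2.49 to 4.52 CPM in Runx2wt and to 1377 to 1839 CPM in BM progenitor. The part of these shifts in the levels of the 10 genes was not tested.

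**Figure D3:**
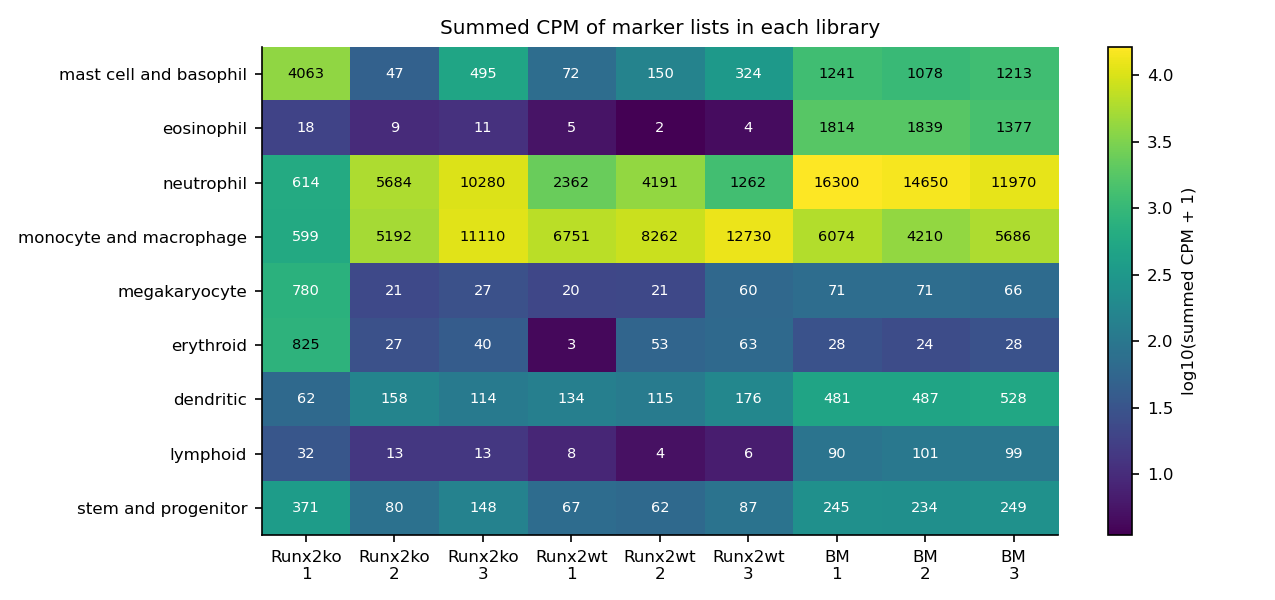
Summed CPM of the 10 mast cell and basophil genes and of 8 other marker lists (rows) in the 9 libraries (columns: Runx2ko, Runx2wt, BM progenitor), coloured by log10(summed CPM + 1). Runx2ko replicate 1 has the highest mast cell and basophil, megakaryocyte, erythroid and stem and progenitor sums and the lowest monocyte and macrophage, neutrophil and dendritic sums.

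Libraries labelled Runx2ko were set against those labelled Runx2wt, both from transformed cultures. None of the 10 genes passed, and none of 11196 genes did (0.0%), with edgeR. At an unadjusted p under 0.05 there were 886 genes, 8 of the 10 among them; DESeq2 called 46 genes, none of the 10, but gave no p for Mcpt8, Prss34 and Gata2, and limma-voom called 0. Log2 fold changes ran from 0.61 for Cma1 to 5.70 for Prss34, with a median of 3.51 over the 10 genes and 0.01 over all genes, and edgeR adjusted p-values from 0.579 to 0.904. Without Runx2ko replicate 1 the median was 0.59, the values ran from -0.84 for Gata2 to 1.93 for Fcer1a, and none of the 10 passed at an unadjusted p under 0.05, where 5 genes of 11636 passed after adjustment (0.043%). Runx2ko and Runx2wt levels overlapped for all 10 genes with that library and without it, whereas 9.68% and 19.1% of all tested genes did not overlap. Runx2ko replicates 2 and 3 themselves differed, from 11.0 to 175.1 CPM for Cpa3 and from 0.381 to 18.4 CPM for Fcer1a.

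In Runx2ko over BM progenitor, which shares its BM progenitor libraries with the comparison of Runx2wt, Cma1 and Tpsb2 rose and none of the 10 fell, where 17.2% of tested genes passed, 10.0% higher and 7.14% lower. limma-voom on the same 9 libraries gave another split: none of the 10 higher (adjusted p = 0.406 for Cma1 and 0.325 for Tpsb2) and 3 lower, Hdc, Mcpt8 and Prss34. The median by edgeR was 0.39 over the 10 genes and 0.07 over all. Without Runx2ko replicate 1, 7 of 10 passed against 28.5% of genes, 15.9% higher and 12.6% lower: Cma1 and Tpsb2 higher, and Mcpt8 (-5.92, adjusted p = 1.53e-05), Prss34 (-7.02, adjusted p = 1.11e-05), Gata2 (-4.24, adjusted p = 0.00107), Ms4a2 (-3.02, adjusted p = 0.00377) and Hdc (-3.50, adjusted p = 0.0105) lower by edgeR. Over the alternatives, the highest adjusted p of these 5 lower genes was 0.482 for Mcpt8, 0.518 for Prss34, 0.848 for Gata2, 0.653 for Ms4a2 and 0.326 for Hdc. Fcer1a at -1.06, Il1rl1 at -2.42 and Cpa3 at 0.27 log2 units did not pass. Levels did not overlap for 5 of 10 genes, 2 higher and 3 lower, against 38.4% of genes, 19.5% higher and 18.8% lower; with Runx2ko replicates 2 and 3 alone they did not overlap for 8, 2 higher and 6 lower, against 59.0%, 30.2% higher and 28.7% lower. None passed without any one BM progenitor library, 4 without Runx2ko replicate 2, Cpa3 and Fcer1a being added, and 1 without replicate 3.

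Across the 5 other transformed libraries the genes fell into different orders. Cpa3, Tpsb2 and Cma1 shared 1 order, lowest in Runx2wt replicate 1, then Runx2ko replicate 2, Runx2wt replicate 2, Runx2wt replicate 3 and Runx2ko replicate 3. Il1rl1 and Ms4a2 differed from it only by an exchange of Runx2wt replicate 2 and Runx2ko replicate 2. The ratio of Tpsb2 to Cma1 counts stayed between 0.556 and 0.784 in these 5 libraries and was 2.07 in Runx2ko replicate 1. Mcpt8 and Hdc did not follow that order: both were lowest in Runx2wt replicate 3, in which Cma1 was at 110.4 CPM, and Gata2 was highest in Runx2wt replicate 1, in which Cma1 was lowest. The order of libraries did not follow the labels Runx2ko and Runx2wt for any of the 10 genes.

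**Figure D4:**
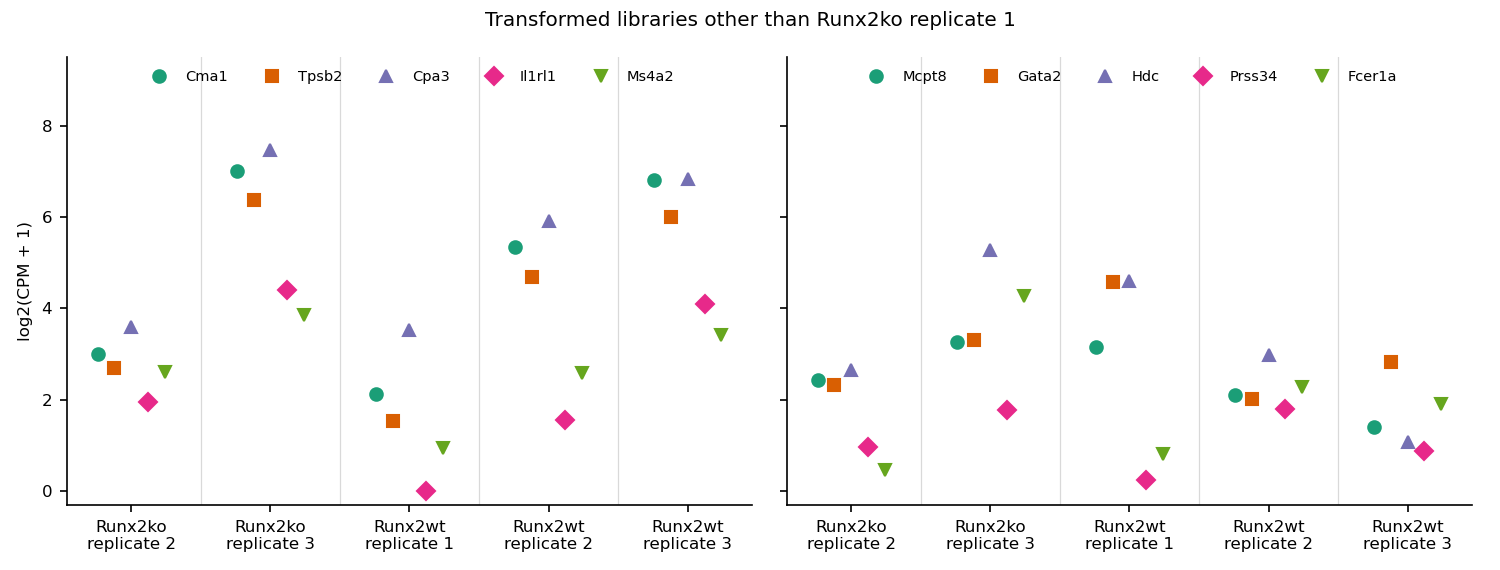
Level as log2(CPM + 1) of the 10 genes in Runx2ko replicates 2 and 3 and Runx2wt replicates 1 to 3. On the left, Cma1, Tpsb2 and Cpa3 are lowest in Runx2wt replicate 1 and highest in Runx2ko replicate 3; on the right, Mcpt8 and Hdc are lowest in Runx2wt replicate 3.

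Lists of other genes of these lineages were counted beside the 13.5% of all genes that passed in Runx2wt over BM progenitor and the 17.2% in Runx2ko over BM progenitor, and were not tested against each other. Of 8 further mast cell proteases and receptors, 6 were in the table and none had enough counts to be tested; Tpsg1 reached 5.18 CPM in Runx2ko replicate 1, Mcpt2 2.98 CPM in Runx2ko replicate 3, and the receptor Mrgprb1 had 0 counts throughout. Among 6 tested basophil-associated genes, 1 fell in Runx2wt over BM progenitor, the lipoxygenase Alox15 (-3.95 log2 units, SE 0.88, edgeR adjusted p = 0.0222), none rose and the median was -1.74. Without Runx2ko replicate 1, 3 fell, where 28.0% of all genes passed and 12.1% were lower. Cd200r3, an activating receptor known from basophils and mast cells and chosen after its values were seen, was at 320.9, 0 and 1.36 CPM in Runx2ko, 0, 0.831 and 6.12 CPM in Runx2wt, against 23.4, 19.4 and 25.3 CPM in BM progenitor. In Runx2ko over BM progenitor Alox15 fell and Ifitm1, an interferon-induced membrane protein, rose by 0.99 log2 units.

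Of 17 tested IgE receptor signalling genes in Runx2wt over BM progenitor, 3 rose, 1 fell and 13 did not pass, with a median of 0.33 log2 units; without Runx2ko replicate 1, 4 rose and 4 fell. Over all genes 13.5% and 28.0% passed in these fits. Lat, the membrane adaptor of the receptor, fell by 3.36 log2 units and was at 40.1, 3.43 and 3.79 CPM in Runx2ko, 1.51, 2.49 and 2.23 CPM in Runx2wt, against 20.6, 19.7 and 23.4 CPM in BM progenitor. Rasgrp4, a Ras activator known from mast cells, rose by 1.59, and Lcp2, the adaptor SLP-76, by 0.83. In Runx2ko over BM progenitor 5 rose and none fell, among them Gab2, a scaffold of the receptor, by 1.26 (SE 0.28, edgeR adjusted p = 0.0189).

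Among transcription factors, 1 of 11 tested fell in Runx2wt over BM progenitor (Runx1, -1.06 log2 units, SE 0.24, edgeR adjusted p = 0.0233), with a median of -0.22, and none passed in Runx2ko over BM progenitor; without Runx2ko replicate 1, 5 fell and 1 rose in each. Over all genes 13.5% and 17.2% passed in these comparisons, and 28.0% and 28.5% without that library. Gata1 and Tal1, partners of GATA2 in blood cells and chosen after their values were seen, were likewise far higher in Runx2ko replicate 1 than in other transformed libraries. Lmo2, of the same list, went the other way, at 30.7 CPM in that library and 276.1 to 446.4 CPM in the other transformed libraries. Of the 11 factors, 6 were highest and 4 lowest there among transformed libraries, where 29.6% of all tested genes were highest. Gata1 was at 35.3, 0.381 and 0 CPM in Runx2ko, 0.188, 0 and 0.278 CPM in Runx2wt, against 7.12, 8.63 and 11.7 CPM in BM progenitor. Mitf, a regulator of mast cells, was at 3.56 CPM in Runx2ko replicate 1 and at 15.8 to 33.6 CPM in the other 8 libraries.

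For mediators, 0 of 16 tested genes passed in Runx2wt over BM progenitor, with a median of -0.09, and Cd63, a granule membrane protein, and Pla2g4a, a phospholipase of leukotriene synthesis, rose in Runx2ko over BM progenitor by 1.51 and 0.90 log2 units. Over all genes 13.5% and 17.2% passed in these comparisons. Without Runx2ko replicate 1, Cd63 and Pla2g4a were at 0.82 and 0.66 log2 units, and 4 mediator genes rose and 4 fell in Runx2wt over BM progenitor, where 28.0% of all genes passed. Slc18a2, the transporter that loads histamine into granules and chosen after its values were seen, was at 769.5, 7.80 and 5.69 CPM in Runx2ko, 5.27, 3.88 and 4.45 CPM in Runx2wt, against 36.5, 32.6 and 39.5 CPM in BM progenitor. Tph1, the serotonin-forming enzyme and likewise chosen, was at 13.3, 1.33 and 23.9 CPM in Runx2ko, 0.188, 5.54 and 24.8 CPM in Runx2wt, against 1.46, 0 and 0.425 CPM in BM progenitor. Hnmt, which breaks down histamine, had 0 counts in Runx2ko replicate 1 and 7.22 to 39.9 CPM elsewhere.

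For growth factor and cytokine receptors, Crlf2, the TSLP receptor, was the 1 of 13 tested that rose in Runx2wt over BM progenitor (1.37 log2 units, SE 0.26, edgeR adjusted p = 0.0127), the median being -0.26, and Crlf2, Il3ra and Il4ra rose in Runx2ko. Kit, the SCF receptor, was at 52.4, 45.1 and 109.5 CPM in Runx2ko, 40.6, 43.5 and 45.1 CPM in Runx2wt, against 73.2, 74.7 and 68.6 CPM in BM progenitor. No effector cytokine of 6 tested passed in any comparison. Over all genes 13.5% passed in Runx2wt over BM progenitor and 17.2% in Runx2ko over BM progenitor. Without Runx2ko replicate 1, 1 effector cytokine rose and 1 fell in Runx2wt over BM progenitor, where 28.0% of all genes passed.

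The 6 genes outside the list whose profile was most like the mean profile of the 10, by the root mean square difference of centred log2 CPM over 9 libraries among 11186 genes, were Xrcc5 at 0.309, Itih5 at 0.476, Rab37 at 0.578, D330045A20Rik at 0.592, Hemgn at 0.593 and Apbb2 at 0.625. Rab37, a small GTPase, was at 197.3, 3.05 and 6.78 CPM in Runx2ko, 1.32, 5.82 and 8.62 CPM in Runx2wt, against 14.4, 15.4 and 13.6 CPM in BM progenitor. Within the 10, Fcer1a was nearest to the mean profile at 0.734 and Tpsb2 farthest at 3.55.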

How the data were processed

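Gene expression was measured by 3' tag sequencing in 9 mouse libraries, 3 per group. Whole-number counts, keyed by Ensembl gene, were deposited by the authors beside a second table of normalized values (counts divided by 1 constant per library, written with decimal commas). The submitters' processing notes list STAR, FastQC and DESeq2 and the build GRCm38; no source used here gives versions, the counting program or its use of strand, so overlapping or antisense genes may share reads. Symbols came from GENCODE M21 and matched 21042 of 21159 identifiers.

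Differences in counts were assessed by edgeR 4.0.16 under R 4.3.3 (quasi-likelihood F-test, TMM factors, filterByExpr at a minimum count of 10, all 9 libraries sharing 1 estimate of the spread), with Benjamini-Hochberg adjusted p under 0.05. Standard errors were derived from the F statistic. Replicates differed by more than sampling noise, so each counted as 1 sample. Named genes are the 10 members, the 6 most alike in profile and Runx2. From each list they are up to 4 passing genes per comparison or else its most highly expressed gene. Tpsab1, Tpsg1, Mcpt2, Mrgprb1, Cd200r3, Gata1, Tal1, Lmo2, Mitf, Slc18a2, Tph1, Hnmt, Il18r1, Ly6a, Procr, Mecom and Ccr3 were named after their values were seen. The 10 genes and the lists were chosen with earlier results of these data known. The alternatives were DESeq2 1.42.0, limma-voom (limma 3.58.1), the authors' normalized values as log2(value + 1), other size factors, no filter, only the compared libraries, a replicate block, and leaving out each library. Totals of 3118594 to 5348177 counts limit precision for genes of few counts. Promoter windows came from RefSeq tables.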

Additional observations from a re-analysis of the deposited data

How the results depend on the processing

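With 3 libraries a group, and 1 of them far from the rest, the calls depend on which libraries are fitted. Leaving out 1 library at a time, members called ranged from 0 to 9 for Runx2wt over BM progenitor, from 0 to 7 for Runx2ko over BM progenitor and were 0 throughout for Runx2ko over Runx2wt; all genes called ranged from 209 to 3256, from 405 to 3311 and from 0 to 5. With only the compared libraries, 8 members and 3679 genes passed in Runx2wt over BM progenitor, where the filter removed Tpsb2. In Runx2ko over BM progenitor 2 members, Cma1 and Tpsb2, and 1262 genes then passed. For Runx2ko over Runx2wt the filter removed Prss34. limma-voom called 3 members in Runx2wt over BM progenitor and 3 in Runx2ko over BM progenitor, all lower, and DESeq2 2390 genes in Runx2wt over BM progenitor and 46 in Runx2ko over Runx2wt. Same-numbered libraries correlated at -0.066 to 0.072 in their deviations from group means, and different-numbered ones at -0.115 to 0.14. This gave no sign that the numbers pair the libraries, but 3 libraries a group are too few to show that they do not. With a replicate block, 922 genes passed in Runx2wt over BM progenitor, where Ms4a2 no longer did (edgeR adjusted p = 0.0688). In Runx2ko over BM progenitor 1 member and 1120 genes then passed. The split of higher against lower calls in Runx2wt over BM progenitor was 927 to 586, and 739 to 724 with library totals alone; in Runx2ko over BM progenitor it was 1125 to 799, and 936 to 923. Signs turned for Cpa3 in Runx2wt over BM progenitor (0.0026 with the replicate block; from -1.14 without Runx2wt replicate 3 to 0.16 without replicate 1) and for Gata2 in Runx2ko over Runx2wt (from -0.84 without Runx2ko replicate 1 to 5.37 without Runx2wt replicate 1). In Runx2ko over BM progenitor, Fcer1a was at -1.06 without Runx2ko replicate 1, -1.07 with limma-voom and -0.30 with the authors' values. Il1rl1 was at -0.81 with the replicate block, -0.04 without BM progenitor replicate 2, -2.42 without Runx2ko replicate 1, -1.82 with limma-voom and -1.44 with the authors' values, and Gata2 at -1.97, -4.24, -2.48 and -2.09 with the block, without Runx2ko replicate 1, with limma-voom and with the authors' values. The highest values with 1 library left out were 3.18 for Fcer1a, 0.62 for Il1rl1 and 1.26 for Gata2. The cause of these changes was not tested.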
